A study of Rattus norvegicus with 6 samples.

Results

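Transcripts of MHC class II antigen presentation and of B2m, 5 genes in all, were measured in cardiac macrophages of rats with and without Dusp6, a phosphatase that dephosphorylates ERK1/2. The genes were taken from a list of Ensembl identifiers. They are Cd74 (ENSRNOG00000018735), RT1-Da (ENSRNOG00000032844), RT1-Ba (ENSRNOG00000000451), RT1-Bb (ENSRNOG00000032708) and B2m (ENSRNOG00000017123), and all 5 are among the 33884 genes of the count table and among the 12756 that passed the filter on low counts. Macrophages positive for CD45, a surface protein of leukocytes, and for HIS36, an antibody against rat macrophages, had been sorted from infarcted left ventricle at 72 h after myocardial infarction (MI), and RNA-seq was run on 3 WT and 3 Dusp6-/- libraries. Both genotypes were Sprague Dawley rats, per the methods of the study males of 8 to 10 weeks, with MI induced by permanent ligation of the left anterior descending artery. The Dusp6-/- rats, called Dusp6-deficient here, carry in every cell a CRISPR-made insertion of 1 adenine in exon 1 that creates a premature stop codon, so a difference seen in macrophages may arise in any cell type of the rat. Sham-operated rats were not part of this comparison.

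MHC class II molecules are pairs of an alpha and a beta chain that carry peptides from engulfed material to the surface of macrophages, dendritic cells and B cells, where CD4+ T cells read them. The rat makes 2 classical class II molecules, RT1.D and RT1.B, which correspond to human HLA-DR and HLA-DQ, and the invariant chain Cd74 guides both through the endosomal pathway and blocks their groove until peptide is loaded. B2m is the light chain of MHC class I molecules, which nearly all nucleated cells carry, and it takes no part in the class II dimer. In macrophages, interferon gamma raises class II transcription through the coactivator CIITA, which acts on a promoter module of S, X and Y boxes shared by the class II genes and Cd74, and MHC class I and B2m promoters hold a related module.

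The stretch from position -110 to -31 relative to the annotated start of transcription is shown for the 5 genes, because this is where the X and Y boxes of class II promoters lie. The sequences are from RefSeq on the build GRCr8, while the reads had been aligned to the older build rn6, and all 5 genes were matched by symbol. Capitals mark every match to one of 5 short motifs on either strand. These were GCAAC and ACNGATG for the X1 box, TGACG for the X2 box, ATTGG for the Y box and GAAANNGAA for the interferon-stimulated response element. The X1 motifs can overlap by 2 bases, and the motifs and the spacing given next were chosen after the sequences had been read.
Cd74, chr18:56527096-56527175, plus strand: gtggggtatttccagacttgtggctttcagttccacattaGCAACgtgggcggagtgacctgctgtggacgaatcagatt
RT1-Da, chr20:4515305-4515384, plus strand: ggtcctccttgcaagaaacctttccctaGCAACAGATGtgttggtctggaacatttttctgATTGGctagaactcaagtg
RT1-Ba, chr20:4576947-4577026, plus strand: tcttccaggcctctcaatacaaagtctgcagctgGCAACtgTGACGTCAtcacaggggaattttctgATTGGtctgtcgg
RT1-Bb, chr20:4604149-4604228, minus strand: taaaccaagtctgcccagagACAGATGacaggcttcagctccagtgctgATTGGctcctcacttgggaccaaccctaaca
B2m, chr3:129549220-129549299, plus strand: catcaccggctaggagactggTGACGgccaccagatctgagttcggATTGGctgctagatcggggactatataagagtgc

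The alpha and beta chain genes each held an X1 motif upstream of ATTGG. In RT1-Da, RT1-Ba and RT1-Bb an X1 motif was followed on the gene's strand by ATTGG after 22 to 28 bases, with ATTGG starting at -49 in RT1-Da, -43 in RT1-Ba and -61 in RT1-Bb. Over the 33469 RefSeq promoter windows of the same 300 bases, 0.472% held an X1 motif with ATTGG 10 to 30 bases behind it, a share that is no test, since the motifs and the spacing were set with these sequences in view. The X1 form was not the same in all, with GCAAC in RT1-Ba, ACNGATG in RT1-Bb and both in RT1-Da. The single motifs are far more common, with GCAAC in 35.1%, ACNGATG in 10.2%, TGACG in 21.2% and ATTGG in 37.5% of the windows. RT1-Ba alone of the 5 had TGACG on both strands, overlapping and close behind its X1 motif. That motif ended at -72 and the first TGACG started at -69. Cd74 had GCAAC at -70 and ATTGG only on the other strand, starting at -189 and so outside the printed stretch. B2m had ATTGG at -64, TGACG at -89 and, further upstream, GAAANNGAA at -150, a motif found in 9.71% of all windows. These matches describe letters in a window and not sites bound in these cells.

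**Figure D1:**
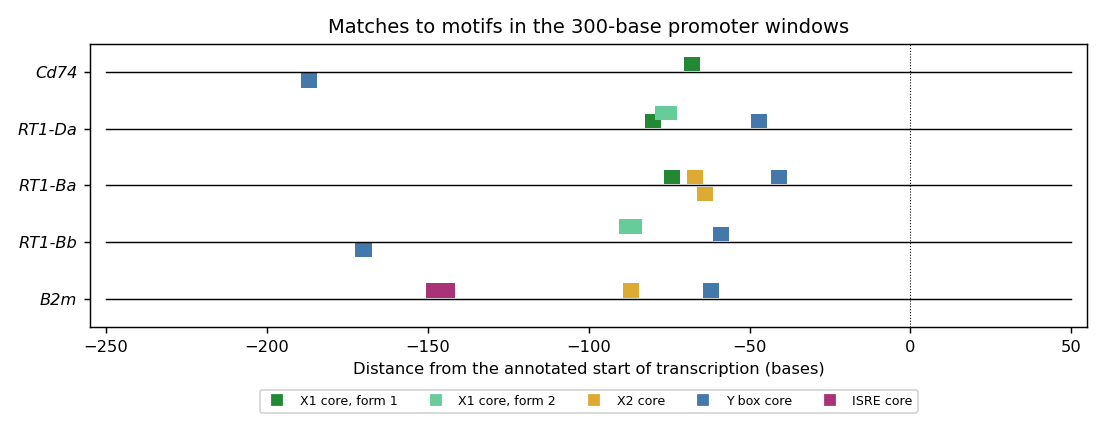
Matches to the motifs in the promoter windows of the 5 genes, from 250 bases before to 50 bases after the annotated start (x axis, in bases). Boxes above each line are matches on the gene's strand and boxes below it on the other strand, form 1 of the X1 core is GCAAC and form 2 ACNGATG.

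In WT replicates 1, 2 and 3, 15806508, 16467086 and 12089585 reads were counted on genes, and in Dusp6-deficient replicates 1, 2 and 3, 17274938, 14183096 and 14124625. A gene at the detection floor of 3 counts would have between 0.172 and 0.242 CPM (counts per 1000000, on library sizes scaled by TMM), a limit that covers counting error only, and all 5 genes lay above it in every library. Among libraries of 1 genotype, no pair repeated the other, since the chi-square statistic per gene was at least 26.4 where a library sequenced again gives about 1. Dusp6-deficient replicate 1 stood apart from its group. On the first principal component of log2 CPM, which held 49.2% of the variance, it scored 4.48 against 65.0 and 53.5 for replicates 2 and 3 and -49.7 to -35.9 for WT. WT replicate 1 stood apart in Cd74, RT1-Da and RT1-Bb, as shown next. The fold changes and the ratios to B2m are therefore also given without either of these libraries, and the shares of counts, the ratios among class II genes and the likeness between genes are given over all 6 only. The labels do not say whether a library came from 1 rat or several, and p-values measure the spread between these 6 libraries. The count table pairs no identifier with a gene name, and the RefSeq table used here holds no Ensembl identifiers, so the level of Dusp6 and the markers of macrophages and of other class II-bearing cells (dendritic cells and B cells) were not analysed here, and the purity of the sort was not checked. In sorted bulk RNA, fewer cells with a transcript and less transcript per cell cannot be told apart.

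The estimates for the class II genes were lower in Dusp6-deficient macrophages to very different degrees, and the B2m values of the genotypes overlapped. RT1-Ba fell 26.3-fold and Cd74 fell 2.39-fold, while the estimates for RT1-Bb (2.36-fold lower) and RT1-Da (1.79-fold lower) did not pass the test. Of these, only the RT1-Ba call held in every alternative, as the Cd74 call was lost in 7 of its 16 alternatives and RT1-Bb was called in 4. Together the 4 class II genes took 0.416%, 0.199% and 0.214% of the counts in WT replicates 1, 2 and 3. In Dusp6-deficient replicates 1, 2 and 3 they took 0.0921%, 0.104% and 0.117%, all below the lowest WT library. A gene was called when its p from edgeR's quasi-likelihood test, adjusted after Benjamini and Hochberg, was under 0.05 and it changed more than 2-fold. By this rule 2 of the 5 genes were called lower in Dusp6-deficient macrophages, where 2.16% of the 12756 genes tested (275 genes) were called lower and 442 genes were called higher. The number of genes called higher and lower was 348 and 345 with upper-quartile scaling and 170 and 412 with library totals alone. With DESeq2, the tool of the study's own test, it was 648 and 649, and Cd74, RT1-Ba and RT1-Bb were called lower. With edgeR's adjusted p alone, and no threshold on the fold change, 2 of the 5, Cd74 and RT1-Ba, were lower, against 2.67% of all genes. For 4 of the 5 genes, the class II genes, every Dusp6-deficient library had fewer CPM than every WT library, and this held for 16.3% of all genes tested. The median log2 fold change of the 4 class II genes was -1.25, and that of all genes tested was 0.02 (quartiles -0.46 and 0.49). These quartiles describe single genes and not medians of 4, so they give no spread for this comparison.

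**Figure D2:**
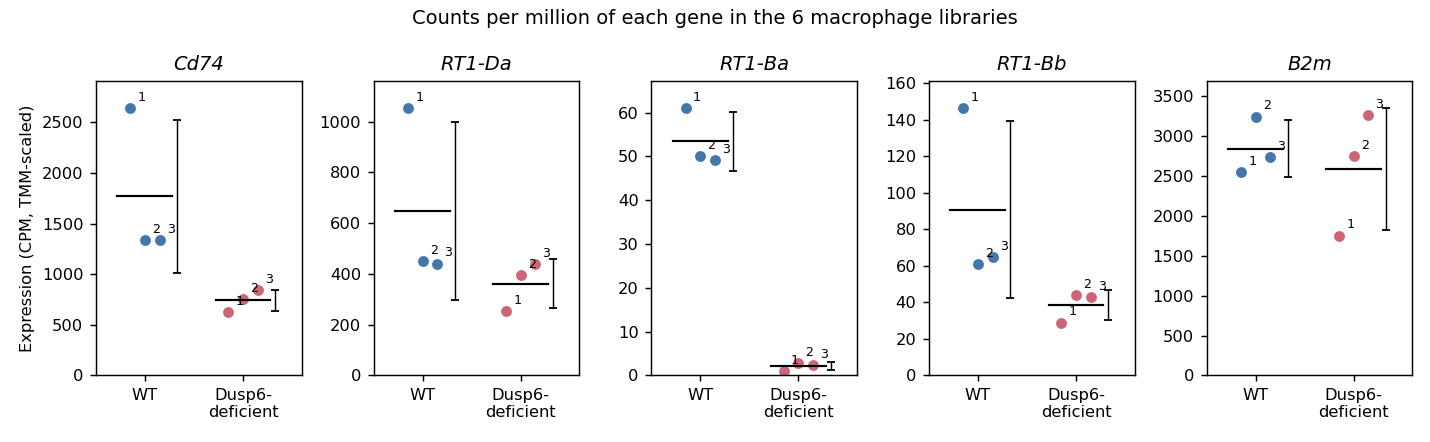
Expression of each gene (y axis, CPM on TMM-scaled library sizes, starting at 0) in the 3 WT and 3 Dusp6-deficient libraries, where points are libraries with their replicate number, horizontal lines are means and the bars beside them 1 SD. WT replicate 1 is the highest point for Cd74, RT1-Da, RT1-Ba and RT1-Bb, RT1-Ba drops from about 50 CPM or more to under 3 CPM, and the B2m points of the genotypes overlap.

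Cd74 encodes the invariant chain, the chaperone of class II dimers. It had 2644, 1337 and 1334 CPM in WT replicates 1, 2 and 3 and 629, 750 and 842 CPM in Dusp6-deficient replicates 1, 2 and 3. The genotypes did not overlap, the lowest WT library was 1.58 times the highest Dusp6-deficient library, and WT replicate 1 had 1.98 times the CPM of the lowest WT library. The mean was 1771 ± 755 CPM (SD, n = 3) for WT but 740 ± 107 CPM (SD, n = 3) for the mutants. The log2 fold change was -1.26 (standard error 0.30, 95% interval of the fit -1.94 to -0.57, adjusted p = 0.0408 in edgeR's quasi-likelihood test), and by log2 fold change Cd74 ranked 628 from the bottom of the 12756 genes. The call did not hold in 5 of the 6 fits that left out 1 library, in which few genes of any kind were called lower (13, 12 and 80 without WT replicates 1, 2 and 3, and 6 and 5 without Dusp6-deficient replicates 2 and 3). The log2 fold change was -0.88 without WT replicate 1 (adjusted p = 0.110), -1.43 without WT replicate 2 (adjusted p = 0.0781), -1.47 without WT replicate 3 (adjusted p = 0.0564), -1.28 without Dusp6-deficient replicate 2 (adjusted p = 0.127) and -1.40 without Dusp6-deficient replicate 3 (adjusted p = 0.133). Only without Dusp6-deficient replicate 1 was the call kept among these 6 fits, with a log2 fold change of -1.20 (adjusted p = 0.0395). The call was also lost when same-numbered libraries were fitted as a block, though no label pairs them. The log2 fold change was then -1.18 (adjusted p = 0.0764 in edgeR's quasi-likelihood test). With DESeq2 the adjusted p was 0.00129, the lowest of the alternatives, and the highest was 0.99998 with glmTreat, a test of whether a change exceeds 2-fold.

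RT1-Da encodes the alpha chain of RT1.D, the DR-like class II molecule. It had 1054, 450 and 440 CPM in WT replicates 1, 2 and 3 and 252, 394 and 437 CPM in Dusp6-deficient replicates 1, 2 and 3. WT replicate 1 lay far above all other libraries, and the lowest WT library and the highest Dusp6-deficient library were nearly level, with a ratio of 1.01. The means were 648 ± 352 CPM (SD, n = 3) and 361 ± 96.7 CPM (SD, n = 3), and the log2 fold change was -0.84 (standard error 0.37, 95% interval -1.69 to 0.00, adjusted p = 0.164 from the same edgeR test). Without WT replicate 1 it was -0.34 (adjusted p = 0.516), and without Dusp6-deficient replicate 1 it was -0.69 (adjusted p = 0.234). The other 4 fits without 1 library gave larger drops, from -1.10 to -0.93, and none of the 6 passed the test. A difference in RT1-Da was therefore not shown at this number of libraries, and a drop to as low as 1 part in 3.23 of the WT level lies within the interval.

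RT1-Ba and RT1-Bb encode the alpha and the beta chain of RT1.B, the DQ-like class II molecule, and lie next to each other in the RT1 region of chromosome 20. RT1-Ba had 1029, 866 and 675 counts (61.1, 50.03 and 49.2 CPM) in WT replicates 1, 2 and 3. In Dusp6-deficient replicates 1, 2 and 3 it had 18, 35 and 29 counts (1.03, 2.83 and 2.32 CPM). Every Dusp6-deficient library was between 1.93% and 5.29% of the WT mean, and the lowest WT library was 17.4 times the highest Dusp6-deficient one. The counts in the mutants were few but above the floor of 3. In the libraries of each genotype that came closest by share of counts, the exact binomial 95% interval, which covers counting error only and not the spread between libraries, was 0.000172% to 0.000343% in Dusp6-deficient replicate 2 and 0.00491% to 0.00562% in WT replicate 2. The log2 fold change was -4.72 (standard error 0.36, 95% interval -5.54 to -3.89, adjusted p = 0.00572 in edgeR's quasi-likelihood test). Only 18 of the 12756 genes had a lower log2 fold change, and of these 1 had a higher mean log2 CPM than RT1-Ba. The drop did not rest on a single library. Without WT replicate 1 the log2 fold change was -4.65 (adjusted p = 0.00917) and without Dusp6-deficient replicate 1 it was -4.42 (adjusted p = 0.00284), and RT1-Ba was called in all 6 fits that each left out 1 library. It was also called by glmTreat (adjusted p = 0.0102), and its adjusted p over all alternatives ran from 8.76e-37 with DESeq2 to 0.0320 without Dusp6-deficient replicate 3.

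RT1-Bb, the beta chain partner, did not show a drop of that size. It had 2469, 1059 and 887 counts (147, 61.2 and 64.6 CPM) in WT replicates 1, 2 and 3, and 505, 545 and 535 counts (28.9, 44.0 and 42.8 CPM) in Dusp6-deficient replicates 1, 2 and 3. As for Cd74, WT replicate 1 was the highest and Dusp6-deficient replicate 1 the lowest library, and the lowest WT library was 1.39 times the highest Dusp6-deficient one. The log2 fold change was -1.24 (standard error 0.36, 95% interval -2.04 to -0.43, adjusted p = 0.0622 from the same edgeR test), just short of the threshold on p. It was -0.74 without WT replicate 1 (adjusted p = 0.167) and -1.12 without Dusp6-deficient replicate 1 (adjusted p = 0.0774), the other 4 fits without 1 library gave -1.47 to -1.36, and DESeq2 called it (log2 fold change -1.27, adjusted p = 0.00849, in a range over the alternatives of 0.00849 to 0.99998).

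**Figure D3:**
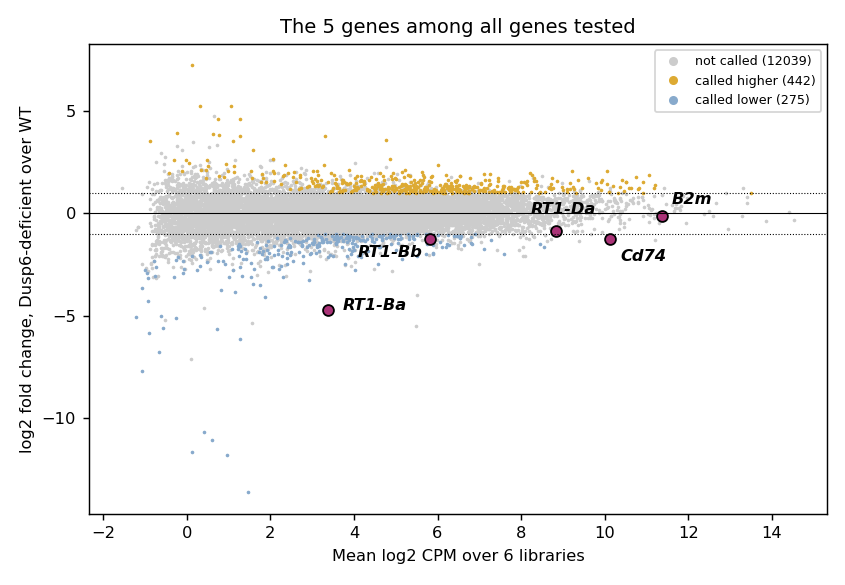
Log2 fold change of Dusp6-deficient over WT (y axis) against mean log2 CPM over the 6 libraries (x axis) for the 12756 genes tested. Gray points were not called, yellow points were called higher (442) and blue points lower (275), dotted lines mark log2 fold changes of -1 and 1, and the 5 genes are circled and named.

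B2m, the class I light chain, had 2550, 3244 and 2735 CPM in WT replicates 1, 2 and 3 and 1752, 2745 and 3263 CPM in Dusp6-deficient replicates 1, 2 and 3. The genotypes overlapped, Dusp6-deficient replicate 3 was the highest and replicate 1 the lowest of all 6 libraries, and WT replicate 1, the highest library for each class II gene, was the lowest of the WT libraries for B2m. The means were 2843 ± 359 CPM (SD, n = 3) and 2587 ± 768 CPM (SD, n = 3), with a log2 fold change of -0.14 (standard error 0.26, 95% interval -0.72 to 0.45, adjusted p = 0.752 from the same edgeR test). Its sign rested on Dusp6-deficient replicate 1, without which the log2 fold change was 0.03 (adjusted p = 0.902). It was -0.24 without WT replicate 1 (adjusted p = 0.671). The interval leaves room for a level in the mutants 1.65-fold lower than in WT.

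Ratios of reads between genes of the same library do not depend on how libraries are scaled to each other. For every 100 reads of B2m there were 104, 41.2 and 48.8 reads of Cd74 in WT replicates 1, 2 and 3 and 35.9, 27.3 and 25.8 in Dusp6-deficient replicates 1, 2 and 3, with no overlap. The mean log2 ratio of RT1-Ba to B2m differed by -4.64 in Dusp6-deficient macrophages (-10.4 ± 0.410 against -5.73 ± 0.323, SD, n = 3 each), that of Cd74 to B2m by -1.01 (-1.77 ± 0.254 against -0.75 ± 0.709, SD, n = 3 each) and that of RT1-Bb to B2m by -0.96 (-6.05 ± 0.180 against -5.08 ± 0.850, SD, n = 3 each). These 3 ratios did not overlap between the genotypes. The share of all genes whose ratio to B2m does not overlap was not computed. Each of the 3 gave p = 0.10 in the two-sided exact permutation test, the smallest p that 3 against 3 libraries allow. Adjusted after Benjamini and Hochberg over the 4 ratios to B2m, the p of this test was 0.133 for each. The ratio of RT1-Da to B2m overlapped and differed by -0.58 (exact permutation test, p = 0.30). Without WT replicate 1 the differences were -0.61 for Cd74, -0.48 for RT1-Bb, -0.09 for RT1-Da and -4.46 for RT1-Ba. Without Dusp6-deficient replicate 1 they were -1.16 for Cd74, -1.02 for RT1-Bb, -0.60 for RT1-Da and -4.46 for RT1-Ba.

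**Figure D4:**
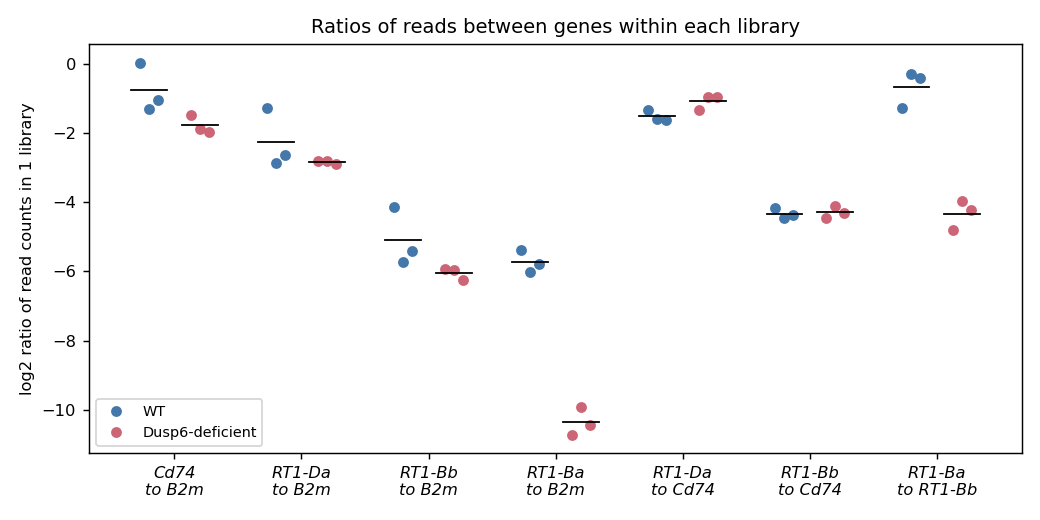
Log2 ratio of read counts of 2 genes within a library (y axis) for 7 gene pairs (x axis), with points for the 3 WT and the 3 Dusp6-deficient libraries and lines at the means. The ratio of RT1-Ba to B2m and that of RT1-Ba to RT1-Bb drop in all 3 Dusp6-deficient libraries, while RT1-Bb to Cd74 is at -4.33 and -4.28 on average.

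The same reading was applied among the class II genes, in 6 ratios added after the values had been seen and therefore given without a test. For every 100 reads of RT1-Bb there were 41.7, 81.8 and 76.1 reads of RT1-Ba in WT replicates 1, 2 and 3 and 3.56, 6.42 and 5.42 in Dusp6-deficient replicates 1, 2 and 3. The ratio of RT1-Ba reads to RT1-Bb reads was thus 12.8-fold lower in the mutants, a mean log2 difference of -3.68 with no overlap. No such shift was seen in RT1-Bb relative to Cd74, with 5.55, 4.58 and 4.85 reads per 100 of Cd74 in WT replicates 1, 2 and 3 and 4.60, 5.87 and 5.08 in Dusp6-deficient replicates 1, 2 and 3, so that the genotypes overlapped (mean log2 difference 0.05). RT1-Da did not follow them as closely. Its reads per 100 of Cd74 were 39.9, 33.6 and 33.0 in WT and 40.1, 52.5 and 51.9 in Dusp6-deficient replicates 1, 2 and 3, a log2 difference of 0.44 with no overlap but with WT replicate 1 and Dusp6-deficient replicate 1 nearly level. RT1-Bb to RT1-Da differed by -0.38 on the log2 scale, again without overlap. For RT1-Ba the log2 difference was -3.62 against Cd74 and -4.06 against RT1-Da, both without overlap.

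RT1 genes are highly variable between rat strains and resemble one another, and the reference genome to which the reads were aligned is that of a different strain, Brown Norway. How reads that map to several places were counted is not given in the sources used here, so the counts of RT1-Da, RT1-Ba and RT1-Bb are less certain than those of Cd74 and B2m. The RT1 alleles of the rats were not analysed here, and their part in the low RT1-Ba counts was not tested. Levels of different genes were not ranked against each other, because the count table gives no transcript lengths.

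The genes whose pattern was most like that of the class II genes were sought among the 8079 other genes whose mean log2 CPM reached 3, by Pearson correlation over the 6 libraries with the mean standardized log2 CPM of Cd74, RT1-Da, RT1-Ba and RT1-Bb. The first was ENSRNOG00000036692 (r = 0.992), with 53.2, 28.5 and 27.0 CPM in WT replicates 1, 2 and 3 and 13.002, 15.2 and 18.2 CPM in Dusp6-deficient replicates 1, 2 and 3. The second was ENSRNOG00000009481 (r = 0.990), with 26.9, 11.3 and 9.76 CPM in WT and 4.41, 5.73 and 6.16 CPM in the mutants. Both share with the class II genes the high value of WT replicate 1 and the low value of Dusp6-deficient replicate 1. That likeness follows from the rule by which they were picked. These are descriptions over 6 libraries in 2 genotypes, and the table does not pair these identifiers with names.

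**Figure D5:**
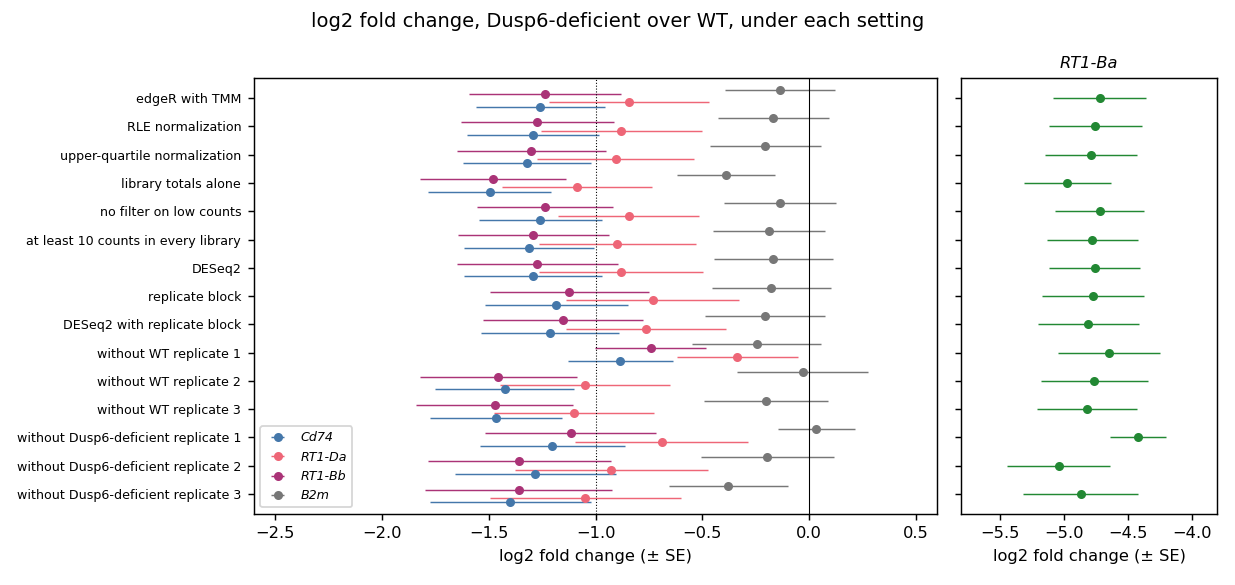
Log2 fold change of Dusp6-deficient over WT (x axis, points with bars of 1 standard error) for each way of processing the counts, with Cd74, RT1-Da, RT1-Bb and B2m in the left panel and RT1-Ba in the right panel on its own range, a dotted line at -1 and a solid line at 0. RT1-Ba stays between -5.04 and -4.42, and the other class II genes move toward 0 when WT replicate 1 is left out.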

How the data were processed

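RNA-seq counts of 6 sorted macrophage libraries were used. Per the labels and the methods of the study, the authors trimmed reads with Trim Galore, aligned them to rn6 (Rnor_6.0) with HISAT2 and deposited raw read counts per gene from featureCounts 1.5.0-p3. The annotation release and the settings for strand and for reads that map to several places are not given in the sources used here.

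Counts were analysed in R 4.3.3. Genes were kept by filterByExpr, scaled by TMM and tested with edgeR 4.0.16 (glmQLFit and glmQLFTest, a model of genotype), with Benjamini-Hochberg adjustment over all 12756 genes tested and the study's thresholds (adjusted p under 0.05 and more than a 2-fold change). Standard errors were derived from the F statistic. The log2 CPM have a prior count of 2. The study itself tested with DESeq2. Here DESeq2 1.42.0, other scalings and filters, glmTreat, a replicate block and fits without each library were alternatives. DESeq2 with the block was added after seeing the data.

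The 5 genes, the lists and the tests were chosen with earlier results of these data known. The genes described were all 5 members and, by rule, the genes most like the class II genes. The rule asked for 6 genes with a symbol, but 0 of the 33884 identifiers (32883 Ensembl, 1001 unannotated loci) could be paired with one in the RefSeq table, so the condition was dropped and 2 are given. For the same reason the lists of class II and class I pathway genes, interferon genes and cell type markers, and Dusp6, were not analysed here. Promoters are from RefSeq, GRCr8.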

Additional observations from a re-analysis of the deposited data

How the results depend on the processing

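RT1-Ba was called in all 16 alternatives, with log2 fold changes from -5.04 to -4.42. Cd74 was not called with the replicate block (-1.18, adjusted p = 0.0764), with glmTreat (-1.26, adjusted p = 0.99998) or in 5 of the 6 fits without 1 library (range over the 6 fits -1.47 to -0.88), and its adjusted p ran from 0.00129 to 0.99998. RT1-Bb was called with library totals alone (-1.48), no filter on low counts (-1.24), DESeq2 (-1.27) and DESeq2 with the replicate block (-1.15, added later), with adjusted p from 0.00849 to 0.99998 over all alternatives. RT1-Da and B2m were called in none of their 16 alternatives, and B2m ranged from -0.38 to 0.034 in the fits without 1 library, above 0 without Dusp6-deficient replicate 1. Library totals alone moved the median log2 fold change of all genes from 0.02 to -0.21. The replicate block left the calls of RT1-Ba, RT1-Da, RT1-Bb and B2m as they were, with 298 genes called higher and 188 lower. The labels do not say whether same-numbered libraries were handled together. Their deviations from the group means correlated at 0.106, -0.118 and -0.139 across genes. Pairs of a WT and a Dusp6-deficient library with different numbers ran from -0.131 to 0.212. A shared batch was not tested.

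Genes called higher numbered 442, against 170 with library totals alone, 708 with no fold change threshold, 0 with glmTreat (318 higher genes at an unadjusted p under 0.05, and 648 called higher with DESeq2) and 1 to 1083 in the fits without 1 library. Genes called lower numbered 275, against 422 with no filter, 649 with DESeq2, 564 with DESeq2 and the block, 4 with glmTreat and 5 to 968 in the fits without 1 library. The highest counts came without Dusp6-deficient replicate 1. The cause was not tested. The alternatives for the pathway lists were not run, since they need gene names.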
